A study of Arabidopsis thaliana with 6 samples.

Results

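The dark-inducible and dormancy-associated genes described here are 8 loci chosen by name from 27416 loci in the deposited tables. They are SEN1 (AT4G35770), DIN2 (AT3G60140), DIN9 (AT1G67070), DIN10 (AT5G20250), DIN11 (AT3G49620), DYL1 (AT1G28330), DRM2 (AT2G33830) and BGAL4 (AT5G56870). They were proposed with the difference between the study's groups already known, so their levels and fold changes are given as a description, without p-values. All 8 were listed in the files, and 6 passed the filter on low counts, while DIN2 and DIN9 did not.

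The study set 2 groups of 3 biological replicates against each other: plants that carry the label ucp1 ucp3, a double mutant, and wild-type plants. Both groups were of the Columbia ecotype of Arabidopsis thaliana, were 21 days old and had been kept on MS medium without further treatment. RNA came from vegetative tissue and was sequenced from stranded mRNA libraries. The alleles at UCP1 and UCP3, which encode carriers of the mitochondrial uncoupling protein family, are not given in the sources used here.

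Dark-inducible (DIN) genes were named for transcripts that accumulate when leaves are kept in darkness, and feeding sugar is known to repress many of them. The dormancy-associated genes belong to a small plant family, also called the dormancy and auxin-associated family, whose transcripts are abundant in resting axillary buds and in carbon-starved tissue. The encoded proteins are diverse, and several act on sugars or on sugar-containing polymers.

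Short stretches upstream of the annotated gene start are shown for the 4 loci that hold at least 1 of 2 letter strings known from sugar-regulated and dark-regulated plant promoters, so that the strings can be seen in place. Each stretch is 60 bases, read in the direction of the gene from the RefSeq TAIR10.1 genome, the revision of TAIR10 held by RefSeq; all 8 loci matched its annotation. Capitals mark TTATCC, a sugar-repressible element, and ACGTG on either strand, the core of the G-box CACGTG bound by bZIP and bHLH factors.
SEN1, chr4:16944763-16944822, plus strand: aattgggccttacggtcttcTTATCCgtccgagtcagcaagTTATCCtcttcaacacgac
DRM2, chr2:14310696-14310755, minus strand: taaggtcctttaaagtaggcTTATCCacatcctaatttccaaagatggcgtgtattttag
DIN11, chr3:18393497-18393556, plus strand: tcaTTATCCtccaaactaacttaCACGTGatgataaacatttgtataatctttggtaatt
DIN10, chr5:6833501-6833560, plus strand: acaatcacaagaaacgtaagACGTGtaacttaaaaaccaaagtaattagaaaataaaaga

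The window searched ran from 250 bases before to 50 bases after the start, on both strands. TTATCC was found in 4 of the 8 windows (SEN1, DIN10, DIN11 and DRM2), and in 14.8% of 27443 protein-coding windows. SEN1 held it at 95 and 74 bases before the start and again after it, DRM2 at 127 bases and DIN11 at 247 bases before the start, while in DIN10 the match lay after the start. TATCCA, which overlaps TTATCC where an A follows, was found in SEN1 and DRM2 and in 16.1% of all windows. The G-box CACGTG was found in DIN11 alone of the 8, 227 bases before the start and again across it, and in 7.68% of all windows. Its core ACGTG, which every CACGTG contains on both strands, was found in DIN10 and DIN11 and in 26.7% of all windows. The evening element AAAATATCT was in 0 of the 8 windows and in 2.82% of all. These matches are letters in 1 window per gene, and gene starts in the index behind the files may lie elsewhere.

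The 6 libraries held between 1183612 and 11296137 estimated reads, with ucp1 ucp3 replicate 3 the shallowest and ucp1 ucp3 replicate 2 the deepest. Replicate 3 of ucp1 ucp3 also stood apart in a principal component analysis, where its first coordinate was 59.3 and those of the other 5 ran from -28.8 to 9.42. UCP1 had 67.2, 46.6 and 53.3 CPM in the ucp1 ucp3-labelled libraries, against 69.2, 67.3 and 75.3 CPM in wild-type. UCP3 had 8.68, 10.2 and 10.8 CPM in the ucp1 ucp3-labelled libraries, against 12.3, 16.1 and 13.0 CPM in wild-type. The ucp1 ucp3-labelled libraries were lower without overlap for both genes, as in 12.4% of all genes past the low-count filter. Both transcripts were present in every library, and their edgeR adjusted p-values were 0.226 and 0.224. They do not check the labels, and each direction below rests on the label. The leaf markers RBCS1A, RCA, LHCB1.3 and CA1 summed to 33059 to 41789 CPM in the ucp1 ucp3-labelled libraries and 28599.7 to 31119 CPM in wild-type, without overlap. Of the 4, 1 was called higher, LHCB1.3, with 15117 to 20231 CPM in the ucp1 ucp3-labelled libraries and 10294 to 11582 CPM in wild-type. RCA also did not overlap, while RBCS1A and CA1 overlapped, with log2 fold changes of 0.028 and 0.0030. Of all genes past the filter, 11.2% were higher without overlap. The 4 root markers summed to 1483 to 1978 CPM in the ucp1 ucp3-labelled libraries and 1699 to 2432 CPM in wild-type, with 0 of 4 called by edgeR, 0 below an unadjusted edgeR p of 0.05 and 0 of the 2 that DESeq2 tested called. The 4 flower markers summed to at most 8.12 CPM and the 4 seed storage markers to at most 0.903 CPM in any library. The part of tissue makeup in the results below was not tested, and in these bulk samples fewer cells of a type and less RNA per cell cannot be told apart.

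SEN1, the first of the dark-inducible genes and also known as DIN1, encodes a protein of the rhodanese superfamily and is widely used as a senescence marker. It had 434, 261 and 369 CPM (counts scaled to library size after TMM normalisation) in replicates 1 to 3 of the ucp1 ucp3-labelled libraries, against 115, 133 and 103 CPM in wild-type. The lowest ucp1 ucp3-labelled library stood well above the highest wild-type library. Means were 355 ± 87.6 CPM in the ucp1 ucp3-labelled libraries and 117 ± 14.9 CPM in wild-type (SD, n = 3 each), and the log2 fold change was 1.59 ± 0.18 (SE), or 3.02-fold.

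DRM2, of the dormancy and auxin-associated family, was the most abundant of the 8 per transcript length. It had 2092, 1057 and 1550.0 CPM in the ucp1 ucp3-labelled libraries, against 659, 695 and 463 CPM in wild-type. The groups did not overlap, although the ucp1 ucp3-labelled libraries differed widely among themselves. Means were 1566 ± 518 CPM in the ucp1 ucp3-labelled libraries and 606 ± 125 CPM in wild-type, and the log2 fold change was 1.37 ± 0.26.

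DYL1, also called DRM1, is the other well-studied member of that family. It had 761, 432 and 583 CPM in the ucp1 ucp3-labelled libraries, against 334, 329 and 255 CPM in wild-type. Again replicate 1 was the highest and replicate 2 the lowest of the ucp1 ucp3-labelled libraries, with no overlap between the groups. The log2 fold change was 0.95 ± 0.19. Per transcript length, DRM2 exceeded DYL1 2.67-, 2.45- and 2.66-fold in the ucp1 ucp3-labelled libraries and 2.07-, 2.14- and 1.89-fold in wild-type, on the deposited TPM scale.

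DIN11 encodes an oxygenase that depends on 2-oxoglutarate and iron. It had 16.9, 14.4 and 19.9 CPM in the ucp1 ucp3-labelled libraries, from 22 to 164 reads, against 6.55, 8.03 and 9.76 CPM in wild-type, from 29 to 42 reads. The groups did not overlap, and here ucp1 ucp3 replicate 3 was the highest of its group. The log2 fold change was 1.00 ± 0.21. Of the 31-base words of its RefSeq mRNAs, 4.77% also occur in AT3G49630 or AT3G50210 on the same strand, so a small part of its reads could belong to them.

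DIN10, of the raffinose synthase family, had 1644, 1521 and 1829 CPM in the ucp1 ucp3-labelled libraries, against 1367, 1363 and 958 CPM in wild-type. The groups did not overlap, but 2 of the 3 wild-type libraries lay close below the lowest ucp1 ucp3-labelled library. The log2 fold change was 0.44 ± 0.15, a 1.35-fold difference.

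BGAL4, a beta-galactosidase of the family that trims galactose from cell wall polymers, had 393, 326 and 363 CPM in the ucp1 ucp3-labelled libraries, against 248, 345 and 238 CPM in wild-type. The groups overlapped, since wild-type replicate 2 exceeded ucp1 ucp3 replicate 2. The log2 fold change was 0.38 ± 0.14. In its RefSeq mRNA 23.2% of 31-base words lie on the opposite strand of AT5G56880, and without a stated strand setting reads of the pair cannot be told apart there.

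The remaining pair was close to the limit of detection. DIN2, a beta-glucosidase also named BGLU30, had 8, 13 and 2 reads in the ucp1 ucp3-labelled libraries, against 14, 3 and 11 reads in wild-type. DIN9, one of 2 mannose-6-phosphate isomerases, had 11, 23 and 2 reads in the ucp1 ucp3-labelled libraries, against 6, 5 and 14 reads in wild-type. As CPM, DIN2 ranged from 1.14 to 1.83 in the ucp1 ucp3-labelled libraries and from 0.831 to 2.87 in wild-type, and DIN9 from 1.81 to 2.51 in the ucp1 ucp3-labelled libraries and from 1.23 to 3.25 in wild-type. The groups overlapped for both genes, and both lay under the detection floor of 3 reads, or 2.71 CPM, in ucp1 ucp3 replicate 3. A difference was not detectable at this depth.

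**Figure D1:**
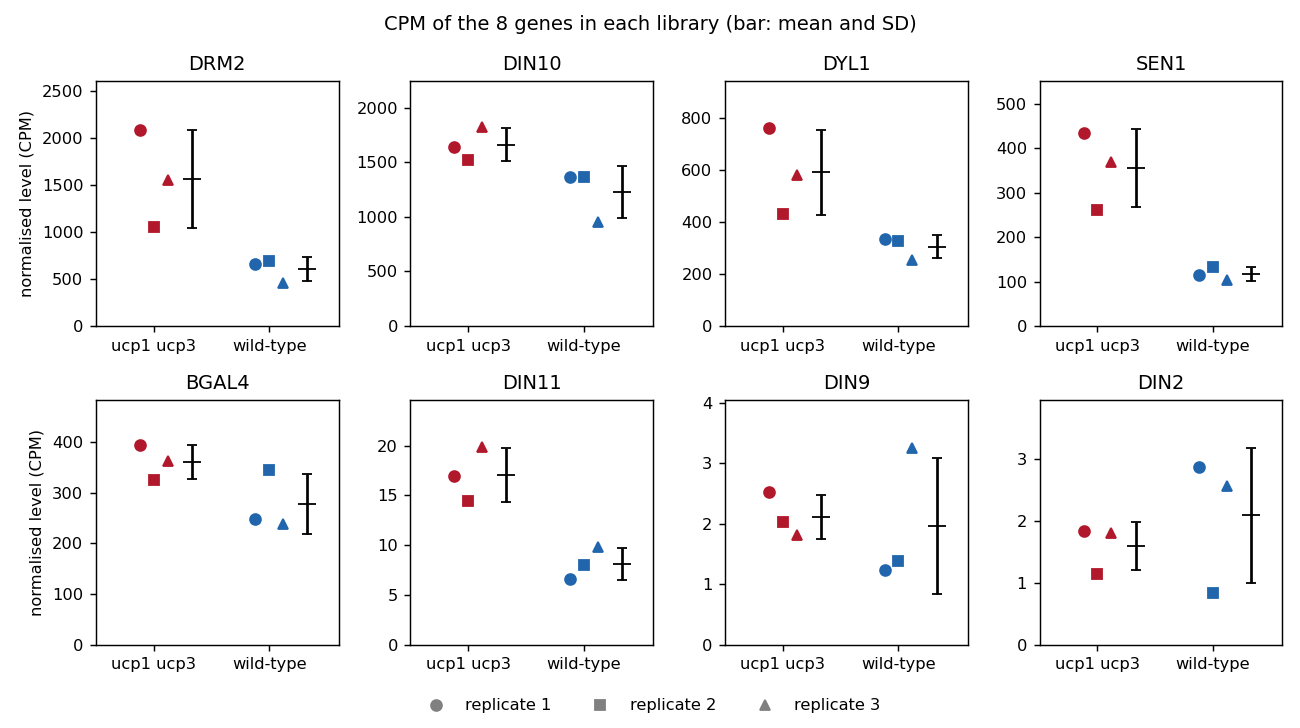
Normalised level (CPM, linear axis from 0) of each of the 8 genes in the 3 ucp1 ucp3-labelled libraries (left) and the 3 wild-type libraries (right); symbols mark the replicate number, and the bar gives the mean and SD. DRM2, DIN10, DYL1, SEN1 and DIN11 have no overlap between the groups, while BGAL4, DIN9 and DIN2 overlap.

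Of the 8 genes, 6 were tested. Past the edgeR threshold were 4 of these 6 (SEN1, DRM2, DIN11 and DYL1), all higher in the ucp1 ucp3-labelled libraries, and 0 were lower. Of 17415 tested genes, 0.781% were called higher, 0.482% lower and 1.26% in either direction. These were 136 and 84 genes, against 109 and 110 when library totals replaced TMM. Non-overlapping groups, with the ucp1 ucp3-labelled libraries higher, were found in 5 of the 6 tested members. Of all tested genes, 11.2% had this pattern and 23.6% had no overlap in either direction. Both counts come from the contrast with which the genes were chosen, and nothing is read from them. The median log2 fold change of all tested genes was -0.0024. In each of the 6 tested genes ucp1 ucp3 replicate 2 was the lowest library of its group. Wild-type replicate 3 was the lowest of its group in SEN1, DIN10, DYL1, DRM2 and BGAL4, and the highest in DIN11. Reads of the 8 loci together made up 0.522%, 0.364% and 0.442% of the ucp1 ucp3-labelled libraries, against 0.277%, 0.297% and 0.206% of the wild-type libraries, most of them from DIN10 and DRM2.

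How far each estimate rested on single libraries differed between the genes. The alternatives refit the same 6 libraries for genes chosen with this contrast known. Passing the threshold in them is therefore a description and no support for a difference. SEN1 stayed past the threshold in all 13 alternatives, with log2 fold changes from 1.41 to 1.79. DRM2, whose log2 fold change stayed between 1.10 and 1.59, was under it in 9 of 13, among them RLE scaling, library totals, both other filters and the fits without replicate 1 or 3 of either group. DYL1 was under it in 5 of 13 and DIN11 in 4 of the 12 that gave it an adjusted p, and both were under it when wild-type replicate 1 or replicate 1 or 3 of ucp1 ucp3 was left out. DYL1 was also under it with the transcript length offset or when wild-type replicate 3 was left out, and DIN11 when wild-type replicate 2 was. With ucp1 ucp3 replicate 3 left out, the library that stood apart, the log2 fold changes were 1.57 for SEN1, 1.39 for DRM2, 0.97 for DYL1, 0.94 for DIN11, 0.37 for DIN10 and 0.38 for BGAL4. DIN10 and BGAL4 were under the threshold in each of the 13.

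**Figure D2:**
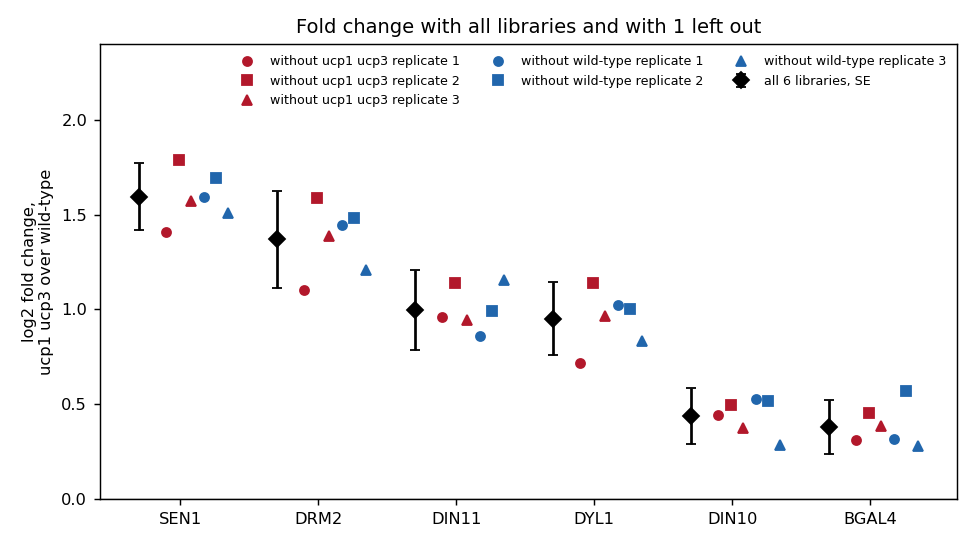
Log2 fold change, ucp1 ucp3-labelled libraries over wild-type, of the 6 tested genes; the black diamond is the fit on all 6 libraries with its SE, and each coloured symbol is the fit without 1 library (red: 1 labelled ucp1 ucp3 left out; blue: 1 wild-type left out). Each estimate stays above 0, and for each gene except DIN10 leaving out ucp1 ucp3 replicate 1 lowers it while leaving out ucp1 ucp3 replicate 2 raises it.

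Levels of different genes were set side by side on the deposited TPM scale, which accounts for transcript length. In the ucp1 ucp3-labelled libraries, DRM2 averaged 3072 ± 888 TPM, DYL1 1176 ± 296, DIN10 658 ± 47.1, SEN1 482 ± 101, BGAL4 158 ± 8.40, DIN11 15.2 ± 2.03, DIN9 1.36 ± 0.210 and DIN2 0.917 ± 0.191 TPM. In wild-type, DRM2 averaged 1308 ± 290 TPM, DYL1 638 ± 104, DIN10 518 ± 106, SEN1 171 ± 26.8, BGAL4 129 ± 29.9, DIN11 7.78 ± 1.48, DIN9 1.34 ± 0.750 and DIN2 1.28 ± 0.666 TPM. The order from DRM2 down to DIN11 was the same in all 6 libraries, and DIN9 and DIN2 changed places in wild-type replicate 1. In wild-type the ranges of DYL1 and DIN10 overlapped (520 to 719 TPM and 395 to 583 TPM), as did those of SEN1 and BGAL4 (146 to 199 TPM and 109 to 164 TPM). In the ucp1 ucp3-labelled libraries neither of those pairs overlapped. DIN9 and DIN2 overlapped in wild-type; in the ucp1 ucp3-labelled libraries DIN9 had 1.15 to 1.57 TPM and DIN2 0.696 to 1.03 TPM, from 2 to 23 reads a library.

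**Figure D3:**
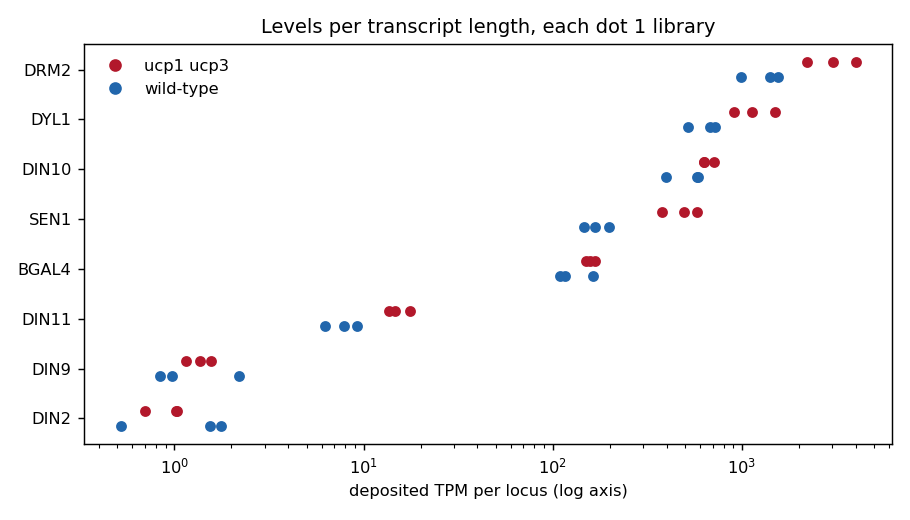
Deposited TPM summed per locus (log axis), each dot 1 library, with the ucp1 ucp3-labelled libraries (red) above wild-type (blue) in each row. The genes run from DRM2, at 983 TPM or more in each library, down to DIN9 and DIN2, at 2.20 TPM or less.

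Of the 8 loci, 4 had more than 1 transcript model in the tables. Model 1 of SEN1 held 80.7%, 73.1% and 73.1% of the estimated reads of the locus in the ucp1 ucp3-labelled libraries, against 66.1%, 69.6% and 52.7% in wild-type. Nearly all the rest belonged to model 2, with 18.7%, 25.9% and 26.9% in the ucp1 ucp3-labelled libraries, against 33.9%, 29.6% and 47.3% in wild-type. The groups did not overlap in either share. In RefSeq the coding sequence of model 1 has 549 bases and that of model 2 has 486 bases.

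As levels, SEN1 model 1 had 350, 191 and 270 CPM in the ucp1 ucp3-labelled libraries, against 76.3, 92.4 and 54.3 CPM in wild-type. Model 2 had 81.2, 67.4 and 99.2 CPM in the ucp1 ucp3-labelled libraries, against 39.1, 39.2 and 48.7 CPM in wild-type. Both models were thus higher without overlap, with ratios of the means of 3.64 for model 1 and 1.95 for model 2. Model 3 was estimated at 30.6 reads or fewer in each library and at 0 in ucp1 ucp3 replicate 3 and in wild-type replicates 1 and 3.

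DYL1 reads were spread over 5 models, with model 2 holding the most reads, at 48.1%, 51.7% and 57.7% in the ucp1 ucp3-labelled libraries, against 52.9%, 56.0% and 42.4% in wild-type. Model 4, the shortest, held 25.5%, 23.0% and 23.4% in the ucp1 ucp3-labelled libraries, against 19.4%, 21.4% and 20.5% in wild-type, without overlap. The order of these models turned with the scale: as a share of the locus TPM, which accounts for length, model 4 averaged 45.3% and model 2 37.5% in the ucp1 ucp3-labelled libraries, and model 4 averaged 41.5% and model 2 37.2% in wild-type. By reads, model 3, whose coding sequence in RefSeq equals that of model 2, held 21.6% in wild-type replicate 3 and between 8.0% and 11.4% in the other 5 libraries. Models 1, 2 and 4 were each higher in the ucp1 ucp3-labelled libraries without overlap, and model 3 overlapped, at 61.5, 39.3 and 46.6 CPM in the ucp1 ucp3-labelled libraries, against 38.1, 28.6 and 55.1 CPM in wild-type.

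DRM2 was nearly all model 2, at 98.1% to 99.1% in the ucp1 ucp3-labelled libraries and 97.6% to 98.1% in wild-type. DIN10 was mostly models 4 and 2. Model 4 of DIN10 held 59.5%, 67.4% and 81.4% in the ucp1 ucp3-labelled libraries, against 65.5%, 64.9% and 60.7% in wild-type, and model 2 held 34.5%, 28.0% and 11.7% in the ucp1 ucp3-labelled libraries, against 28.8%, 28.0% and 28.8% in wild-type. The share of model 2 in ucp1 ucp3 replicate 3, the shallowest library, stood apart from all others. Its locus total of 1829 CPM was the highest of the 6, and model 4 stood at 1488 CPM there, against 978 and 1025 CPM in the other ucp1 ucp3-labelled libraries and 581 to 896 CPM in wild-type.

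The split between models is an estimate from reads that several models share, and no measure of its uncertainty was among the values used. How often groups do not overlap over all transcript models was not counted, so nothing is read from non-overlap of models or shares. The models also need not equal those of RefSeq with the same number: the ratio of reads to TPM implied about 725 bases for DRM2 model 2 and 2609 bases for BGAL4, against 933 and 3812 bases in RefSeq. For SEN1 models 1 and 2 the implied lengths were 946 and 1028 bases, against 1002 and 1068 bases in RefSeq.

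**Figure D4:**
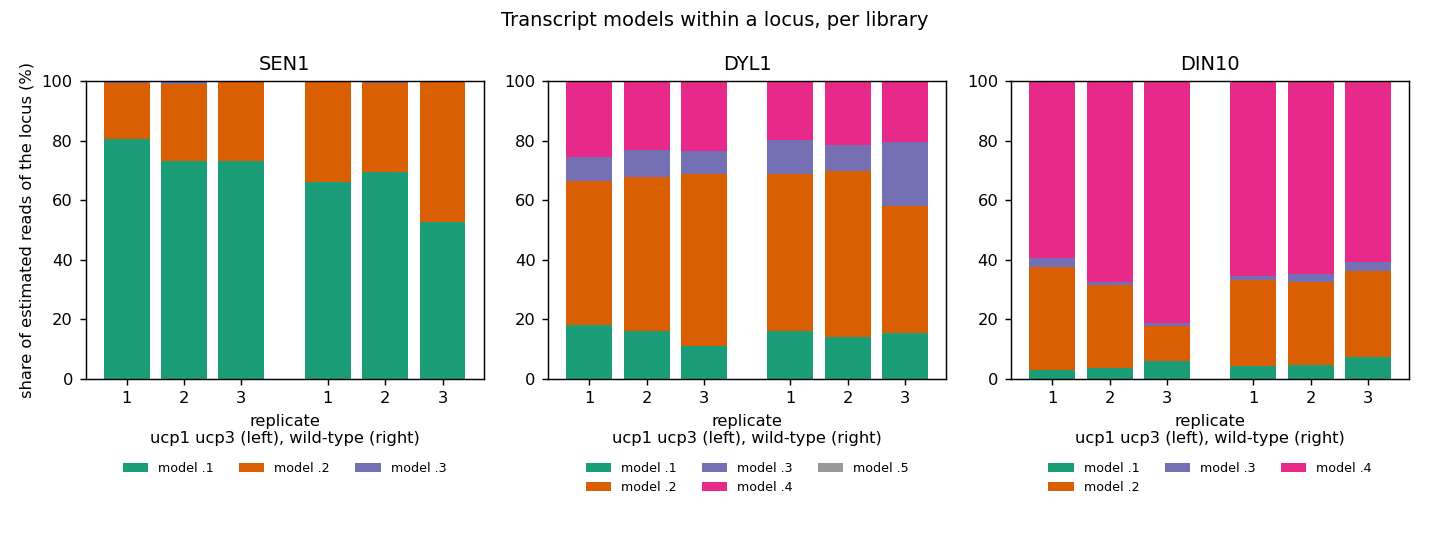
Share (%) of the estimated reads of SEN1, DYL1 and DIN10 assigned to each transcript model, 1 bar per library, with the 3 ucp1 ucp3-labelled libraries left of the 3 wild-type libraries. SEN1 model 1 is largest in ucp1 ucp3 replicate 1 (80.7%) and smallest in wild-type replicate 3 (52.7%), and DIN10 model 2 is smallest in ucp1 ucp3 replicate 3 (11.7%).

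Another 3 loci carry DIN names. These loci and the lists below were also chosen with earlier results of these data known, so their calls are a description. DIN6, the asparagine synthetase gene ASN1, had 733, 420 and 713 CPM in the ucp1 ucp3-labelled libraries, against 96.0, 93.6 and 48.8 CPM in wild-type (log2 fold change 2.96 ± 0.35, edgeR adjusted p = 0.0264). DIN4, which encodes a subunit of the dehydrogenase that breaks down branched-chain keto acids, had 84.3, 70.6 and 91.2 CPM in the ucp1 ucp3-labelled libraries, against 54.7, 56.0 and 40.7 CPM in wild-type (0.67 ± 0.14, edgeR adjusted p = 0.0372). DIN3, for another subunit of the same complex, had 45.7, 42.5 and 46.9 CPM in the ucp1 ucp3-labelled libraries, against 45.9, 38.0 and 27.4 CPM in wild-type, and its edgeR adjusted p was 0.467. DIN6 and DIN4 thus rose and DIN3 did not pass; both calls were lost when replicate 1 or 3 of ucp1 ucp3 was left out, and that of DIN4 also when wild-type replicate 1 or 3 was left out and with the replicate block.

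Among 22 markers of energy starvation, 4 rose, 0 fell and 18 did not pass. Their median log2 fold change was 0.41, against -0.0024 for all tested genes, and 19 of 22 estimates were above 0. Because the list was chosen with earlier results of these data known, nothing is read from these counts. MCCA, which takes part in leucine breakdown as part of methylcrotonyl-CoA carboxylase, had 193, 148 and 168 CPM in the ucp1 ucp3-labelled libraries, against 97.4, 92.0 and 54.9 CPM in wild-type, a rise of 1.05 ± 0.20 on the log2 scale (edgeR adjusted p = 0.0424). The group C bZIP gene bZIP9 rose by 0.86 ± 0.16 on the log2 scale, with 60.3, 47.6 and 69.5 CPM in the ucp1 ucp3-labelled libraries, against 34.2, 34.4 and 25.3 CPM in wild-type (edgeR adjusted p = 0.0212). AKINBETA1, a regulatory subunit gene of the SnRK1 energy-sensing kinase, had 126, 81.9 and 105 CPM in the ucp1 ucp3-labelled libraries, against 62.2, 57.9 and 53.2 CPM in wild-type (log2 fold change 0.84 ± 0.15, edgeR adjusted p = 0.0181).

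SEN5, a locus often measured as a marker of low energy, had 1858, 1529 and 1926 CPM in the ucp1 ucp3-labelled libraries, against 1114, 1191 and 876 CPM in wild-type (log2 fold change 0.74 ± 0.14, edgeR adjusted p = 0.0254). As in SEN1 and DRM2, ucp1 ucp3 replicate 2 was the lowest of its group in these 4 genes. The number of markers that rose was 0 when replicate 1 or 3 of ucp1 ucp3 was left out, 8 when replicate 2 of ucp1 ucp3 was, and 1 when wild-type replicate 1 was. It was 7 of 18 with DESeq2. In all 4 genes the groups did not overlap. Among the 22 markers, the ucp1 ucp3-labelled libraries were higher without overlap in 12 and lower in 1. Of all tested genes, 11.2% were higher and 12.4% lower without overlap.

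Beside SEN1, other genes of the senescence programme were counted. Of 16 genes of dark senescence and chlorophyll breakdown, 12 were tested, 0 rose and 0 fell by edgeR, with 5 of 12 estimates above 0 and a median log2 fold change of -0.06; DESeq2 gave 8 of them an adjusted p and called 1 higher (PIF4) and 1 lower (ORE1). An unadjusted edgeR p under 0.05 was found for 5 of the 12. The share of all tested genes with such a p was not counted. Nothing is read from this number or from those of the lists below. Of the 12, 1 was higher and 4 were lower without overlap, against 11.2% and 12.4% of all tested genes. SAG21, PAO, ORE1 and WRKY53 were lower in the ucp1 ucp3-labelled libraries, with log2 fold changes of -0.35, -0.39, -0.83 and -0.99. PIF4 was higher, at 0.88. SAG12, a protease gene of late senescence, had 0 reads in each library, which allows up to 0.264 CPM in the deepest and 2.71 CPM in the shallowest. The senescence regulator WRKY53 had 6.17, 11.7 and 6.32 CPM in the ucp1 ucp3-labelled libraries, against 16.0, 16.9 and 21.6 CPM in wild-type (edgeR adjusted p = 0.0596), and PIF4, a factor that promotes growth and senescence in the dark, had 84.8, 64.9 and 131 CPM in the ucp1 ucp3-labelled libraries, against 45.0, 44.0 and 53.7 CPM in wild-type (edgeR adjusted p = 0.0960). Both were called without ucp1 ucp3 replicate 2, WRKY53 lower and PIF4 higher, WRKY53 also without the filter and PIF4 also with the replicate block. By edgeR, ORE1 was called lower when wild-type replicate 2 was left out. Of 6 bud dormancy genes, among them the branching repressors BRC1 and BRC2, 0 passed the filter, and their sum was at most 4.34 CPM in any library.

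**Figure D5:**
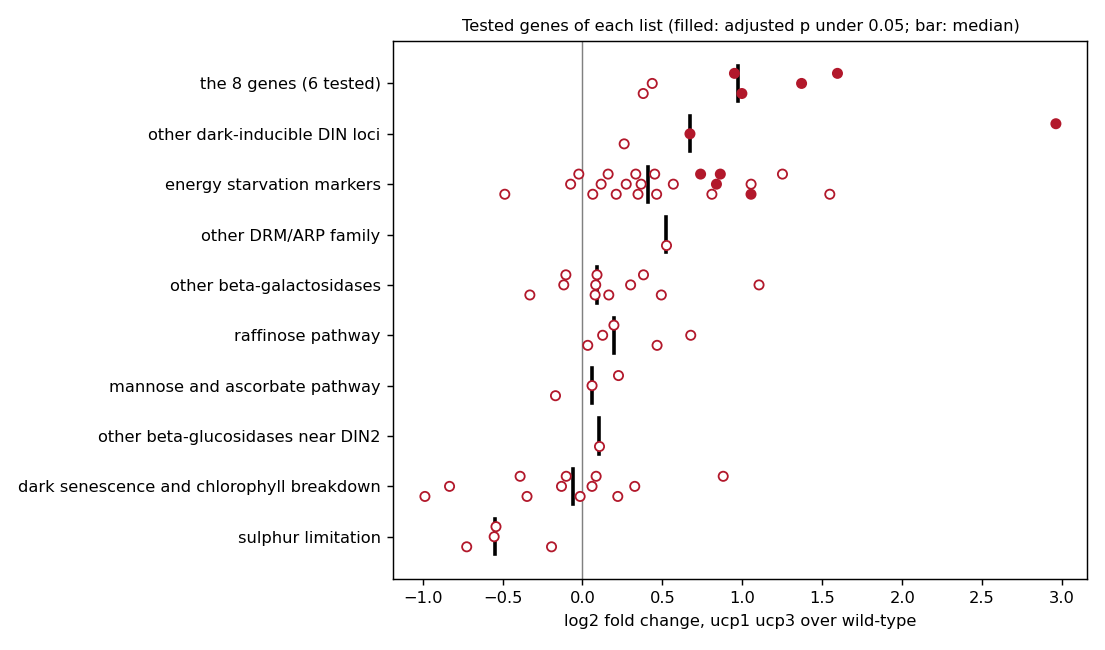
Log2 fold change, ucp1 ucp3-labelled libraries over wild-type, of the tested genes of each list (filled: edgeR adjusted p under 0.05; black bar: median). The 4 filled dots of the 8 genes come from the contrast that chose them. The other filled dots are 2 DIN loci and 4 energy starvation markers, from lists also chosen with earlier results of these data known.

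Relatives of the 8 genes were also compared. Of the other DRM family loci, AT1G56220 had 763, 509 and 634 CPM in the ucp1 ucp3-labelled libraries, against 428, 455 and 446 CPM in wild-type (log2 fold change 0.52 ± 0.14, edgeR adjusted p = 0.0782), while AT1G54070 and AT5G44300 had 0 reads in each library; AT1G56220 was called with DESeq2, without the filter and without ucp1 ucp3 replicate 2. Of 16 other beta-galactosidase genes, 11 were tested and 0 passed by edgeR, with a median of 0.09; 5 had an unadjusted p under 0.05. BGAL1 had the largest estimate of these, with 1747, 1601 and 2115 CPM in the ucp1 ucp3-labelled libraries, against 943, 1076 and 519 CPM in wild-type (1.10 ± 0.25, edgeR adjusted p = 0.0782), and it was called with DESeq2 and when wild-type replicate 2 or 3 was left out. BGAL5, at 0.49 ± 0.16, did not pass (edgeR adjusted p = 0.132).

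Of 6 beta-glucosidase genes related to DIN2, BGLU16 was the 1 tested (log2 fold change 0.10, edgeR adjusted p = 0.752), and 4 had 2 or fewer reads in each library. In the raffinose pathway 0 of 5 tested genes passed, with GOLS1, for galactinol synthase, at 0.68 (edgeR adjusted p = 0.239) and SIP1 at 0.47 (edgeR adjusted p = 0.486). In the mannose and ascorbate pathway 0 of 3 passed, with CYT1 at 0.23 (edgeR adjusted p = 0.312) and PMM at -0.17 (edgeR adjusted p = 0.562). Of 4 tested genes of sulphur limitation, a condition that is also known to raise DIN2, 0 passed and all estimates were below 0, with a median of -0.55. The 2 listed genes that were not tested went the other way, on 13 reads or fewer in each library. SDI1 averaged 1.67 CPM in the ucp1 ucp3-labelled libraries and 0.958 CPM in wild-type. LSU1 averaged 1.28 CPM in the ucp1 ucp3-labelled libraries and 0.559 CPM in wild-type, without overlap. SHM7, a serine hydroxymethyltransferase gene, had 37.7, 44.1 and 36.1 CPM in the ucp1 ucp3-labelled libraries, against 64.5, 48.8 and 63.5 CPM in wild-type (edgeR adjusted p = 0.0659), and the log2 fold change of SDI2 was -0.54 (edgeR adjusted p = 0.165). SHM7 was called lower without the filter and when replicate 2 of either group was left out. Genes of these 3 pathways with an unadjusted p under 0.05 by edgeR numbered 1 of 5, 0 of 3 and 2 of 4, and DESeq2 called 0 of the 2, 3 and 3 to which it gave an adjusted p.

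For each of the 6 tested genes, 1 other locus was named whose log2 CPM followed it most closely over the 6 libraries, among 12467 loci with a mean of at least 10 CPM. These were AT4G32340 for SEN1 (Pearson r = 0.997), AT5G64250 for DRM2 (0.996), AT3G01690 for DYL1 (0.997), ARP8 for DIN11 (0.992), AT4G35730 for DIN10 (0.9996) and AT1G34630 for BGAL4 (0.998). Values of r this high are to be had by choice among so many loci over 6 libraries that share 2 groups, so they are a description. The measure ignores the size of a difference: AT4G32340 had 191, 164 and 178 CPM in the ucp1 ucp3-labelled libraries, against 138, 141 and 133 CPM in wild-type, a far smaller step than that of SEN1.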

How the data were processed

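The authors deposited 1 table per library with estimated counts and TPM (a length-normalised abundance) for 35386 transcript models. Kallisto, DESeq2 and TAIR10 are listed in the submitters' processing notes, with no role given; versions, the strand setting and the alleles are not given in the sources used here. The deposited estimated counts were summed per locus, rounded and fitted with edgeR 4.0.16 in R 4.3.3 (filterByExpr, TMM, robust quasi-likelihood F test). Adjusted p-values are Benjamini-Hochberg over 17415 tested loci, and a call is an adjusted p under 0.05. CPM are counts scaled to the TMM-normalised library size. TPM were used as deposited, summed per locus.

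The members and the lists were chosen with earlier results of these data known. The text names the members, UCP1 and UCP3, each called gene of a list (at most 6) or else up to 2 with the smallest p, and the locus nearest in profile; other genes, among them DIN3, ORE1, SAG12, BRC1, BRC2, AT1G54070, AT5G44300 and the leaf markers that were not called, fall outside this rule and were named after their values were seen. The labels call the samples biological replicates without naming separate plants or cultures, so p-values measure only the spread between these samples, which may be technical. Total estimated reads ranged 9.54-fold between libraries. The floor is 3 reads in a library; it covers counting error only. On simulated counts with known changes the fit recovered most of the larger ones and few of the smallest, and false calls were more frequent than the nominal rate. Alternatives were a replicate block, RLE scaling, library totals, 2 other filters, a transcript length offset, DESeq2 1.42.0 and leaving out each library.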

Additional observations from a re-analysis of the deposited data

How the results depend on the processing

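Estimates of the 6 tested members stayed above 0 in all 13 alternatives, with 18 values under the threshold that the fit on all libraries had passed. Some alternatives also fitted DIN2 and DIN9, on 23 reads or fewer in each library. The log2 fold change of DIN2 was below 0 in each of those, from -0.94 (without wild-type replicate 2) to -0.24 (without ucp1 ucp3 replicate 2). That of DIN9 changed sign, from -0.13 (without wild-type replicate 1) to 0.25 (without ucp1 ucp3 replicate 2). The number of loci called higher was 136, against 267 without the filter and 229 with DESeq2, and called lower 84, against 223 without the filter and 158 with DESeq2. With library totals in place of TMM, 109 were higher and 110 lower. Leaving out 1 library gave 31 to 326 higher (fewest without wild-type replicate 1, most without ucp1 ucp3 replicate 2) and 16 to 347 lower (fewest without ucp1 ucp3 replicate 1, most without ucp1 ucp3 replicate 2). Members past the threshold numbered 4, against 2 with the length offset and 1 to 4 on leaving out a library. Other list genes called higher numbered 6, against 12 with DESeq2 and 0 to 12 on leaving out a library; 0 were called lower, against 2 without the filter, 1 with DESeq2 and 0 to 2 on leaving out a library. The log2 fold change of BGLU16, 0.10 over all libraries, ran from -0.0033 without ucp1 ucp3 replicate 1, a reversed sign, to 0.22 without ucp1 ucp3 replicate 2. The cause of these shifts was not tested. Differences between the groups in the shares of transcript models moved by less than 1 SD between replicates with TPM in place of reads. The larger of the 2 group SDs was used, which is wide for some models. For DYL1 model 2 it was 7.14 percentage points, and the difference was 2.05 by reads and 0.23 by TPM. For DYL1 model 3 it was 6.79 points, and the difference was -5.50 by reads and -3.50 by TPM. Some shares themselves moved more, those of DYL1 models 2 and 4 among them.

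Samples shared only a replicate number: deviations of same-numbered libraries correlated at -0.068, -0.096 and -0.011. With the replicate block 122 loci were higher and 45 lower, and 4 members were past the threshold. In the shallowest library, ucp1 ucp3 replicate 3 with 1183612 reads, DIN2 and DIN9 had 2 reads each.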
